A study of Homo sapiens with 18 samples.

Results

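The 39 human HOX genes were examined for peaks of the leukaemia fusion protein AML1-ETO in cells with and without knock-down of the microRNA miR-130a. They are the protein-coding genes of the RefSeq table of GRCh38.p14 whose symbol is HOXA, HOXB, HOXC or HOXD followed by a number. They make up 39 of 19974 protein-coding genes on chromosomes 1 to 22 and X. The HOXA cluster on chromosome 7 holds 11 of them, the HOXB cluster on chromosome 17 holds 10, and the HOXC cluster on chromosome 12 and the HOXD cluster on chromosome 2 hold 9 each. The rule uses gene symbols and no measured value, but the genes were chosen with earlier results of these data known. A gene was called in a peak list if a peak lay in its body or within 10 kb of it.

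HOX genes encode homeodomain transcription factors that set positional identity along the body axis, and their order in a cluster follows the order of their use along that axis. Low paralogue numbers stand at the anterior end and high numbers at the posterior end. In blood, HOXA9, HOXA10 and several HOXB genes are active in stem and progenitor cells and are shut down as cells mature. Leukaemias with KMT2A rearrangements or NPM1 mutations keep HOXA genes high, whereas leukaemias that carry AML1-ETO are known for low HOX expression. Polycomb and Trithorax proteins hold the clusters in repressed or active chromatin.

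All samples were Kasumi-1 cells, an acute myeloid leukaemia line that carries the AML1-ETO fusion, here expressing AML1-ETO with a Flag tag. Transduced GFP-positive cells were sorted after 3 days as control or miR-130a KD, and AML1-ETO was mapped by CUT&RUN, in which antibody-tethered nuclease releases the DNA around bound sites. The 18 libraries comprised 3 each of anti-ETO, anti-Flag and mouse IgG per condition, and the labels do not name the vectors or say whether replicates were separate cultures. Anti-ETO recognises the ETO moiety whether or not the protein is tagged, and anti-Flag recognises the tag. The labels do not say which copy of the fusion carries it. The cell line could not be checked against marker genes, because the lists carry no expression values.

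The deposited lists give peak positions with no height, score or replicate. Each antibody and condition has 1 list, so no spread between libraries and no test of condition could be obtained, and the depth behind a call is unknown. Counts for HOX genes are therefore set beside the same counts over all protein-coding genes, as a description. HOX genes are short, with a median length of 3785 bp against 24170.5 bp for all protein-coding genes, and lie so close together that 1 peak often falls in the windows of several. They are not independent observations.

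3 stretches of sequence inside peaks of the clusters are shown first, because they are promoter windows that hold part of the sites at HOXA13, HOXA3 and HOXD8. The other sites described here, among them those at HOXA5, HOXB6 and HOXA10, are given by position only. The windows are from RefSeq GRCh38.p14, each 300 bases long, from 250 bases before to 50 bases after a start. Capitals mark the bases inside a peak of at least 1 list. The HOXA13 window (chr7:27200042-27200341, minus strand) overlapped peaks of 3 lists over 162 bases. The HOXA3 window of an internal start (chr7:27150901-27151200, minus strand) lay wholly inside a control anti-Flag peak. The window of LOC100129455 (chr2:176130479-176130778, minus strand), a gene that overlaps HOXD8, overlapped the HOXD8 site over 267 of the 732 bases of that merged region. All 267 lay in the knockdown anti-ETO peak, and the control anti-ETO and anti-Flag peaks ended within the window, at 176130702 and 176130736.
HOXA13: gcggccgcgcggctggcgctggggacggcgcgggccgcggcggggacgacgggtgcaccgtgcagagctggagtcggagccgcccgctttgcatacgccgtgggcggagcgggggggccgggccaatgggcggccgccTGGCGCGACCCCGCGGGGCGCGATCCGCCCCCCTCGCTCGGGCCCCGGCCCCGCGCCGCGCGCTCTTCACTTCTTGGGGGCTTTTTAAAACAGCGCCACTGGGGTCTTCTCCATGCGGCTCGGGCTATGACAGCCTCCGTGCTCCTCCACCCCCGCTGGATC
HOXA3: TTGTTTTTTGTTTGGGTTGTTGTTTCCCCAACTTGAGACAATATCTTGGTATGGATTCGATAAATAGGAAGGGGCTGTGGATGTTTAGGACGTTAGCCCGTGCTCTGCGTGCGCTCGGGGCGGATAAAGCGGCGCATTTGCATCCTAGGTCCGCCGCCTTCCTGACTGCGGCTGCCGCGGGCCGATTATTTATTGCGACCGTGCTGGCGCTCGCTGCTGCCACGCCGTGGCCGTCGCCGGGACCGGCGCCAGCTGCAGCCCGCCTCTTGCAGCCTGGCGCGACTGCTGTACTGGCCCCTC
LOC100129455: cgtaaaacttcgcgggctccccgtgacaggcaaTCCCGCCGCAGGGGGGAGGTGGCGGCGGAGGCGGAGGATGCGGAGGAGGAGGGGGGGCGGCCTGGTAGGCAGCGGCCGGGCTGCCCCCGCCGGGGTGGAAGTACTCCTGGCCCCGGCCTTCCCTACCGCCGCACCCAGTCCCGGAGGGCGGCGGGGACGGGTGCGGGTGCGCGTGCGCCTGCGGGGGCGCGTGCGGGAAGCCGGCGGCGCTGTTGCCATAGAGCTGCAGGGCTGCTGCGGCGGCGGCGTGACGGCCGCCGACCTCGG

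The HOXA13 and LOC100129455 windows were rich in G and C, and the HOXA3 window was near the median. The share of G and C was 76.3% for HOXA13, 77.7% for LOC100129455 and 60.7% for HOXA3. The median was 58.7% over 34789 promoter windows and 58.0% over 26 HOX promoter windows. Exact matches on both strands were sought for TGTGGT (the core of the RUNX site), CAGCTG (an E-box, bound by the E proteins that partner AML1-ETO) and TGATTNAT (a site of PBX-HOX dimers). The HOXA3 window held CAGCTG at bases 250 to 255, a letter run that reads the same on both strands, and the other windows shown held none of the 3 motifs. Among the 26 distinct HOX promoter windows, which cover 20 of the 39 genes, TGTGGT was found in 3 (11.5%), CAGCTG in 6 (23.1%) and TGATTNAT in 2 (7.69%). Over all promoter windows the shares were 13.1%, 17.9% and 2.83%. A match describes letters and is not evidence of a bound site.

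**Figure D1:**
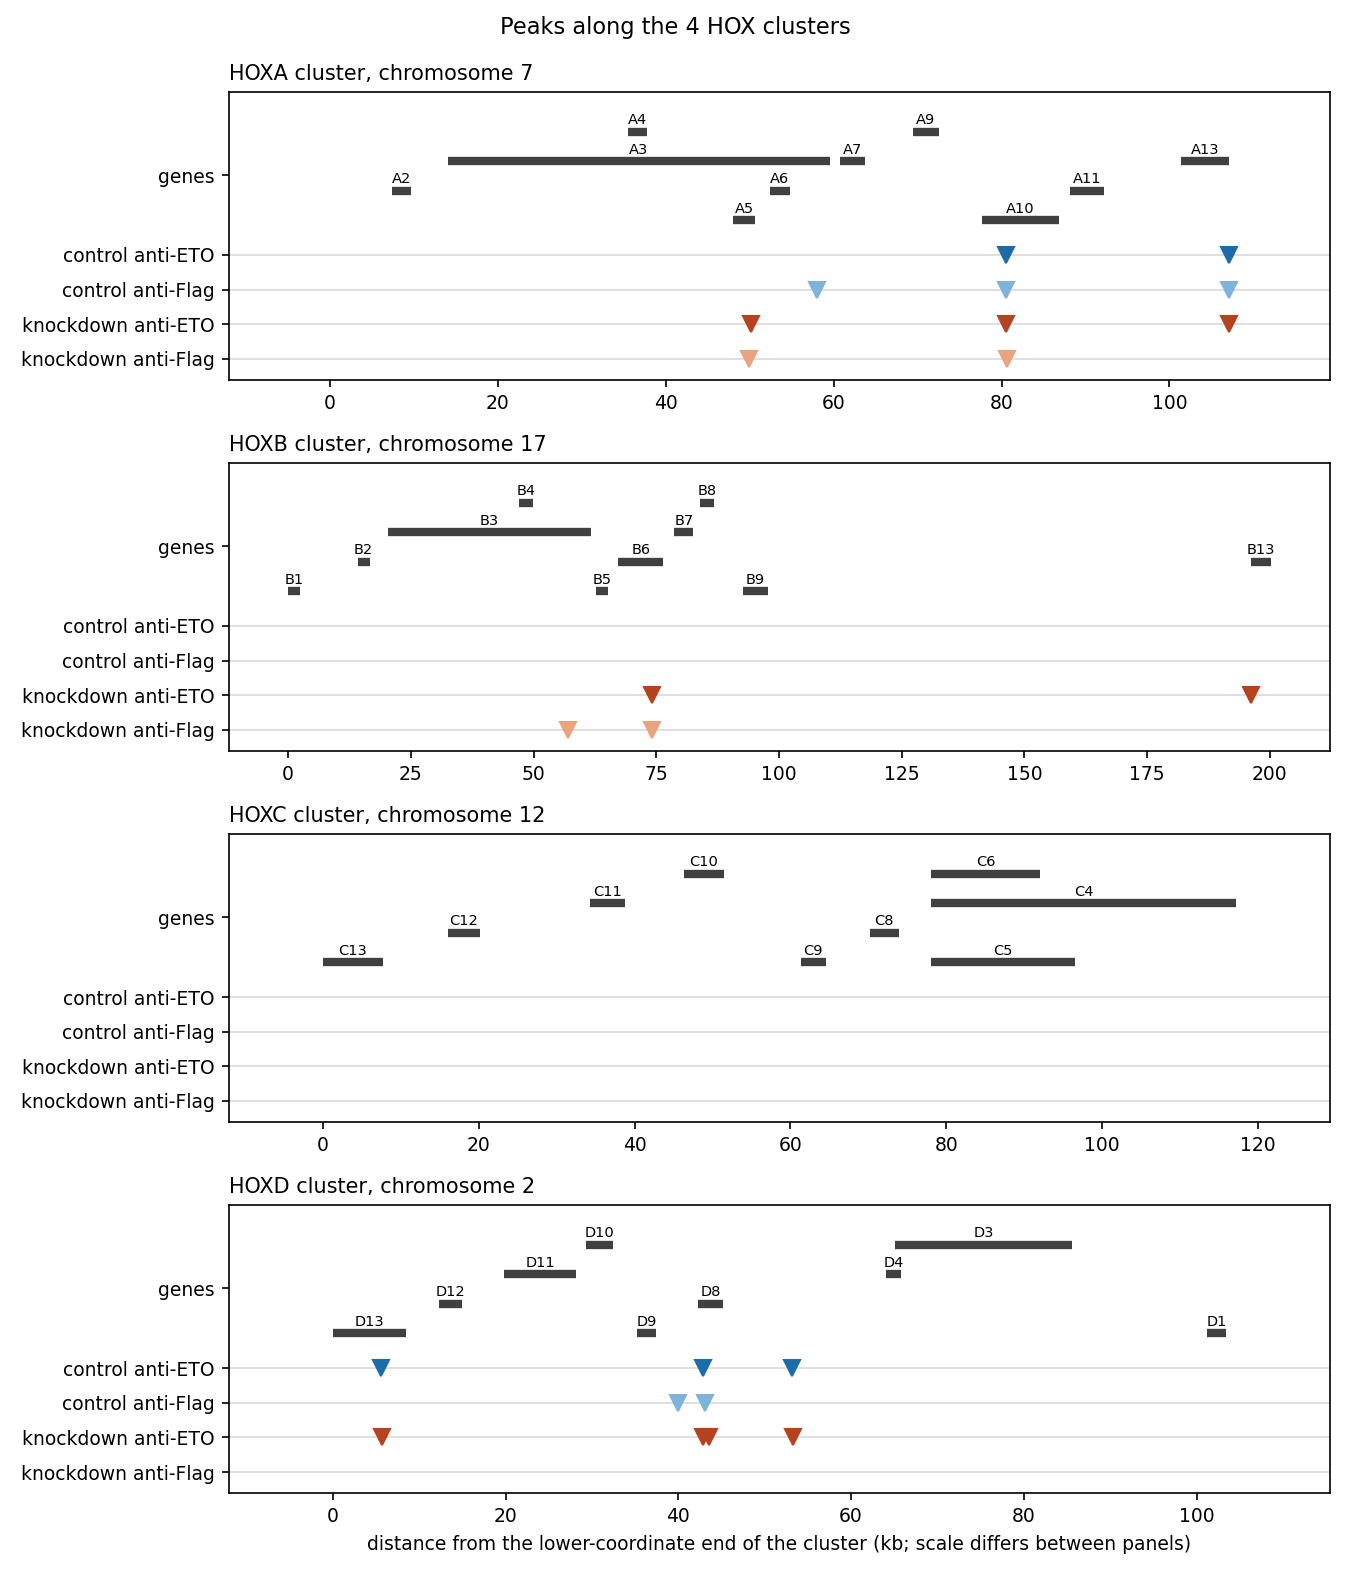
Peaks along the 4 HOX clusters. The x axis is the distance in kb from the lower-coordinate end of each cluster, grey bars are the bodies of the genes shown, labelled without the HOX prefix, and each triangle marks the centre of 1 peak in 1 of the 4 single-antibody lists. HOXC has no triangle, HOXB has them in the knockdown rows, and HOXD has none in the knockdown anti-Flag row.

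The 4 clusters differed in which lists held peaks. Of 23 single-antibody peaks at HOX genes, 5 were in the control anti-ETO list, 5 in the control anti-Flag list, 9 in the knockdown anti-ETO list and 4 in the knockdown anti-Flag list. HOXA peaks came from all 4 lists, HOXB peaks from the knockdown lists alone, and HOXD peaks from every list but knockdown anti-Flag. HOXC had none. Of the 23 peaks, 20 overlapped a HOX gene body and 17 lay in the windows of more than 1 HOX gene.

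Taken over all 4 clusters, a smaller share of HOX genes than of all protein-coding genes had a peak. In control, anti-ETO called 8 of 39 HOX genes (20.5%), against 47.6% of all protein-coding genes, and anti-Flag called 11 (28.2%) against 50.2%. In knockdown, anti-ETO called 16 (41.0%) against 53.8%, and anti-Flag called 12 (30.8%) against 42.2%. A peak in at least 1 list was found for 20 HOX genes (51.3%) against 58.4%, and in all 4 lists for 3 (7.69%) against 37.3%. The clusters did not share this pattern. HOXA genes with a peak numbered 4 and 8 of 11 in the control anti-ETO and anti-Flag lists and 7 and 6 in the knockdown lists, above the share of all genes in each list but control anti-ETO. HOXB genes numbered 0 and 0 of 10 in control and 5 and 6 in knockdown. For knockdown anti-Flag this was above the share of all genes and near the 59.4% of protein-coding genes on chromosome 17. For knockdown anti-ETO it was below both, the share on chromosome 17 being 67.9%. HOXC genes numbered 0 of 9 in each list. HOXD genes numbered 4 and 3 of 9 in control and 4 and 0 in knockdown. Both clusters were below the share of all genes in each list. HOX genes are also shorter, with a median of 3785 bp against 24170.5 bp, and the part of length in these shares was not tested. Per length, the windows of all HOX genes held 12 merged regions in 0.530 Mb, or 22.7 per Mb, and the windows of all protein-coding genes held 20.8 per Mb. By cluster the values were 31.5 for HOXA, 21.2 for HOXB, 0 for HOXC and 40.5 for HOXD. The protein-coding windows of their chromosomes held 10.7, 61.9, 16.6 and 9.23 in the same order.

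**Figure D2:**
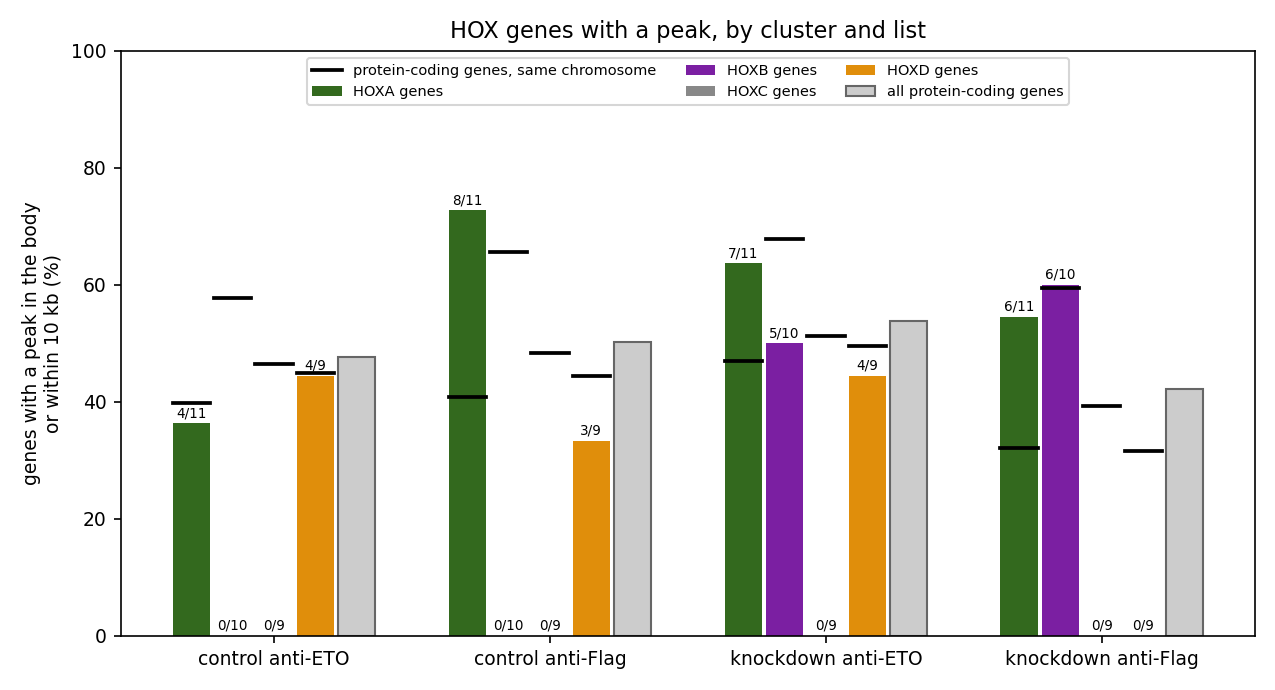
Percent of genes with a peak in the body or within 10 kb, for each HOX cluster (coloured bars, with the number of genes called), for all protein-coding genes (light grey bars) and for protein-coding genes of the same chromosome (black lines). HOXB stands at 0 of 10 in both control lists and at 5 and 6 of 10 in the knockdown lists.

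Overlapping peaks of the 4 lists were merged into regions, of which 12 lay at HOX genes and 35622 in the genome. Of the 12, 5 were called in both conditions (48.8% of all regions were), 2 in control alone (13.4% of all) and 5 in knockdown alone (37.8% of all). By antibody, 5 were called by both (50.4% of all), 4 by anti-ETO alone (13.4% of all) and 3 by anti-Flag alone (36.3% of all). In the genome 24.8% of regions were called in all 4 lists, and at HOX genes 1 of 12 was. That region lay in HOXA10.

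HOXA10, a regulator of myeloid and lymphoid progenitors, held the site found in every list. Its peak spanned chromosome 7, 27173250 to 27173894 in control anti-ETO, 27173212 to 27173913 in control anti-Flag, 27173219 to 27173894 in knockdown anti-ETO and 27173447 to 27173880 in knockdown anti-Flag. The site lay inside the gene, 407 bp downstream of the second of 2 listed HOXA10 starts. It also fell in the windows of HOXA9, the HOXA gene most closely tied to myeloid leukaemia, at 7675 to 7910 bp from its body, and of HOXA11, a limb and uterus regulator, at 7244 to 7277 bp. These 3 genes were the HOX genes with a peak in all 4 lists, and they owe it to this 1 site. The authors' shared list holds it as 27173212 to 27173913, a width of 702 bp against a median of 1047 bp for that list.

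HOXA13, which acts in the most distal limb and the hindgut, was called in 3 lists. Its peak covered 27200020 to 27200203 in both anti-ETO lists and 27200029 to 27200203 in control anti-Flag. The nearest knockdown anti-Flag peak lay 20484 bp away. The site straddles the HOXA13 start and lies in the capital letters of the HOXA13 sequence above. The long non-coding RNA HOTTIP starts 330 bp away in the opposite direction. At 184 bp the peak was narrow: 4.21% of control anti-ETO peaks and 4.34% of knockdown anti-ETO peaks were narrower. The authors' lists give it as control-unique, meaning called by both antibodies in control and not by both in knockdown.

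The central HOXA genes differed between conditions. In knockdown, anti-ETO called 27142787 to 27143390 and anti-Flag called 27142797 to 27143043, inside HOXA5, a regulator of lung and axial development that is also used in blood progenitors, and inside the long HOXA3 gene model. The upper end of the region lay 291 bp inside the HOXA5 body. Neither control list had a peak there, and the site is knockdown-unique in the authors' lists. The nearest control anti-Flag peak was at 27150776 to 27151219, 7095 bp from HOXA5, and it covers the internal HOXA3 start shown above. No other list had that peak. HOXA3, a regulator of pharyngeal development, HOXA5 and HOXA6 were thus called by anti-Flag in both conditions through different sites, and by anti-ETO in knockdown alone. HOXA7 was called by control anti-Flag alone, at 2497 bp. The nearest knockdown peaks to HOXA7 lay just outside the window, at 10326 bp for anti-ETO and 10673 bp for anti-Flag. HOXA2 and HOXA4 had no peak in any list.

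The HOXB cluster had peaks in knockdown and none in control. A site in HOXB6, which is expressed in erythroid and myeloid progenitors, was called by both antibodies, at chromosome 17, 48602528 to 48602701 for anti-ETO and 48602533 to 48602701 for anti-Flag. It fell in the windows of HOXB5, HOXB7 and HOXB8 as well, and it is knockdown-unique in the authors' lists. Anti-Flag alone called 48585363 to 48585695 inside the HOXB3 gene model, within 10 kb of HOXB4, a gene that expands blood stem cells when overexpressed, and of HOXB5. Anti-ETO alone called 48724553 to 48724887 across the lower end of HOXB13, a prostate regulator that stands apart from the rest of the cluster. HOXB1, HOXB2 and HOXB9 had no peak in any list. The nearest control anti-ETO peak to any HOXB gene was 102135 bp from HOXB13.

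The HOXB6 peak was among the narrowest of its lists, and the other HOXB peaks were not. At 174 bp the HOXB6 peak had the smallest width of the whole knockdown anti-ETO list, and 2.41% of knockdown anti-Flag peaks were narrower than its 169 bp. Of the same lists, 28.2% of anti-ETO peaks were narrower than the 335 bp of the HOXB13 peak and 43.2% of anti-Flag peaks narrower than the 333 bp of the HOXB3 peak. The knockdown lists held 22594 anti-ETO and 25961 anti-Flag peaks and the control lists 14264 and 23162, so the knockdown list was the longer one for each antibody. With all 4 lists shortened by width to the 14264 peaks of the shortest, HOXB genes with a peak numbered 0 in every list. That cut keeps the widest peaks and leaves the control anti-ETO list whole. Its outcome follows from the widths just given and does not measure the part of list length. Peak numbers on the chromosome also moved with this result. Chromosome 17 held 1163 control and 2119 knockdown anti-ETO peaks, a ratio of 1.82 against 1.58 for the whole lists, and its ratio for anti-Flag was 1.36 against 1.12. Within 1 Mb on either side of the cluster, anti-ETO had 36 peaks in control and 71 in knockdown, and anti-Flag had 77 and 80. The part of list length and of the chromosome in the HOXB calls was not tested.

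**Figure D3:**
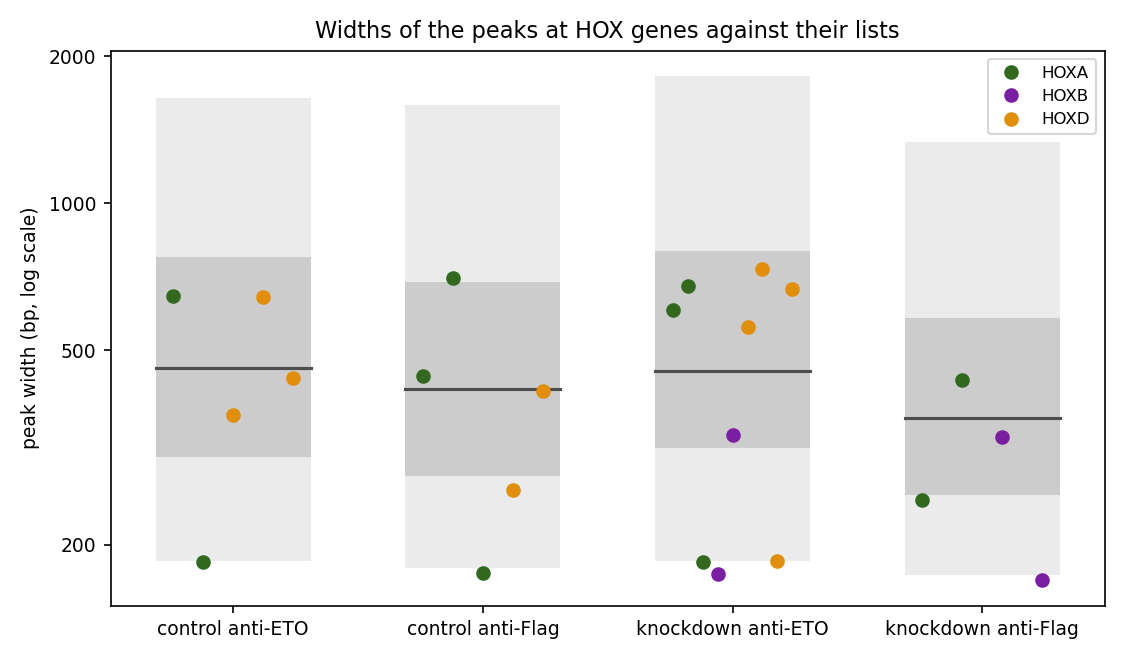
Widths in bp, on a log scale, of the 23 peaks at HOX genes (points, coloured by cluster) in each single-antibody list. Dark boxes span the middle 50% of the whole list, light boxes the 5th to 95th percentile, and lines mark its median. The HOXB6 and HOXA13 points and the narrower HOXD8 point of knockdown anti-ETO lie below the light boxes or at their lower edge.

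The HOXC cluster had no peak in any of the 4 lists over its 117 kb. The nearest peak below it, taken over the lists, ended 206 to 211 kb away, and the nearest above it began 133 to 172 kb away. Its surroundings were not empty: within 1 Mb on either side there were 28 control and 50 knockdown anti-ETO peaks and 56 control and 54 knockdown anti-Flag peaks. On chromosome 12, 39.3% to 51.2% of protein-coding genes were called, depending on the list. All 9 HOXC genes (HOXC4, HOXC5, HOXC6, HOXC8, HOXC9, HOXC10, HOXC11, HOXC12 and HOXC13) also lacked a peak in every list with a window of 100 kb. The lists give no signal value, so a weak signal under the authors' threshold cannot be told apart from none.

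The HOXD cluster was called mainly by anti-ETO, in both conditions, and by anti-Flag in control alone. HOXD8 had the most merged regions in its window of any HOX gene, 4, of which 2 overlapped its body. Its main site was called at chromosome 2, 176130060 to 176130702 by control anti-ETO, 176130325 to 176130736 by control anti-Flag and 176130014 to 176130745 by knockdown anti-ETO. The region began 309 bp downstream of the listed HOXD8 start and is the site of which a part is shown under LOC100129455. The authors' lists give it as control-unique, with a width of 677 bp. A second knockdown anti-ETO peak, at 176130969 to 176131153, lay 1264 bp downstream of the same start. It was 185 bp wide, with 4.68% of that list narrower, and no other list had it. Control anti-Flag also called 176127286 to 176127544, which lies 2161 bp from HOXD8 and 2349 bp from HOXD9.

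Further anti-ETO sites of the HOXD cluster appeared in both conditions without an anti-Flag call. HOXD13, which patterns the digits, held one at 176092847 to 176093214 in control and 176092894 to 176093452 in knockdown, 126 bp downstream of its listed start. It lay within 10 kb of HOXD12. The other, at 176140426 to 176140864 in control and 176140434 to 176141102 in knockdown, lay between genes, 7731 bp from HOXD8. HOXD4, the nearest HOX gene on its other side, was just outside the window at 10686 bp in control and 10448 bp in knockdown. HOXD10 was called by control anti-Flag alone, at 7349 bp, and its nearest anti-ETO peaks were 10123 bp away in control and 10077 bp in knockdown. HOXD1, HOXD3, HOXD4 and HOXD11 had no peak in any list.

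No HOXD gene had a knockdown anti-Flag peak, and the nearest to HOXD8 was 127470 bp away. On chromosome 2 the knockdown anti-Flag list held 0.755 times as many peaks as the control list, against 1.12 for the whole lists, and 31.6% of protein-coding genes there were called in knockdown against 44.4% in control. The part of this chromosome-wide difference in the HOXD calls was not tested. In anti-ETO peaks per length, HOXA and HOXD stood above their surroundings. These rates rest on 2 to 4 peaks per span, and gene content was not matched. There were 29.0 anti-ETO peaks per Mb in the HOXD span in control and 38.7 in knockdown, against 3.0 per Mb in both conditions within 1 Mb on either side. For HOXA the values were 18.7 in control and 28.0 in knockdown, against 3.5 and 6.5. For anti-Flag, HOXA had 28.0 per Mb in control and 18.7 in knockdown, against 6.0 and 5.5. HOXD had 19.3 in control against 4.0, and 0 in knockdown against 2.5. The anti-Flag rates above 0 rest on 2 or 3 peaks per span. HOXB went the other way for both antibodies. For anti-ETO it had 0 in control and 9.99 in knockdown against 18.0 and 35.5, and for anti-Flag 0 and 9.99 against 38.5 and 40.0. HOXC had 0 in every list, against 14.0 to 28.0.

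The calls of each gene were then compared between conditions. For anti-ETO, 8 HOX genes were called in both conditions (20.5%, against 45.7% of all protein-coding genes). None was called in control alone (1.87% of all), and 8 were called in knockdown alone (20.5%, against 8.09%). The 8 were HOXA3, HOXA5, HOXA6, HOXB5, HOXB6, HOXB7, HOXB8 and HOXB13, and 3 sites account for them. With the lists cut by width to equal length, 3 were called in knockdown alone and 1 in control alone. For anti-Flag, 6 HOX genes were called in both conditions (15.4%, against 39.8%), 5 in control alone (12.8%, against 10.4%) and 6 in knockdown alone (15.4%, against 2.42%). The control-alone genes were HOXA7, HOXA13, HOXD8, HOXD9 and HOXD10, and the knockdown-alone genes were HOXB3, HOXB4, HOXB5, HOXB6, HOXB7 and HOXB8. The knockdown-alone share for anti-Flag rested on 2 HOXB sites. With the lists cut by width it was 0 genes, because the cut takes out the HOXB peaks by their widths.

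Taking either antibody, 2 HOX genes were called in control and not in knockdown (5.13%, against 3.22% of all protein-coding genes). They were HOXA7 and HOXD10, each through a control anti-Flag peak. The 7 called in knockdown and not in control (17.9%, against 5.36%) were the 7 HOXB genes with a peak. They owe it to 3 HOXB sites, whose peaks are all taken out by their widths when the lists are cut to equal length. By merged region, 5 of 12 at HOX genes (41.7%) were called in knockdown alone, against 37.8% of all regions. A difference here is between 2 lists of calls, with no replicate check.

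Peak by peak, the control anti-ETO calls at HOX genes were all found again in knockdown, and most control anti-Flag calls were not. All 5 control anti-ETO peaks overlapped a knockdown anti-ETO peak, where 91.0% of the whole list did. Of the 5 control anti-Flag peaks, 1 overlapped a knockdown anti-Flag peak, where 62.1% of the list did. From the other side, a control anti-ETO peak lay at 5 of the 9 knockdown anti-ETO peaks (55.7% of the list). A control anti-Flag peak lay at 1 of the 4 knockdown anti-Flag peaks (59.2% of the list). An anti-Flag peak of the same condition lay at 3 of the 5 control anti-ETO peaks (89.6% of the list) and at 3 of the 9 knockdown anti-ETO peaks (63.2% of the list). An anti-ETO peak lay at 3 of the 5 control anti-Flag peaks (57.5% of the list) and at 3 of the 4 knockdown anti-Flag peaks (63.1% of the list). The HOX share was thus below that of the list for anti-ETO. For anti-Flag it was above, but 1 peak fewer would have put it below in either condition. These are counts of 4 to 9 peaks and were not tested.

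In the authors' lists of sites called by both antibodies, HOX genes had 1 shared, 2 control-unique and 2 knockdown-unique peaks. The shared peak in HOXA10 served 3 genes, or 7.69% of the HOX genes, against 35.1% of all protein-coding genes. The control-unique peaks at HOXA13 and HOXD8 served 3 genes (HOXA13, HOXD8 and HOXD9), also 7.69%, against 16.9%. The knockdown-unique peaks at HOXA5 and HOXB6 served 7 genes (HOXA3, HOXA5, HOXA6, HOXB5, HOXB6, HOXB7 and HOXB8), 17.9% against 18.4%. Both control-unique sites kept an anti-ETO peak in knockdown and lacked an anti-Flag peak there. Both knockdown-unique sites had no control peak of either antibody.

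**Figure D4:**
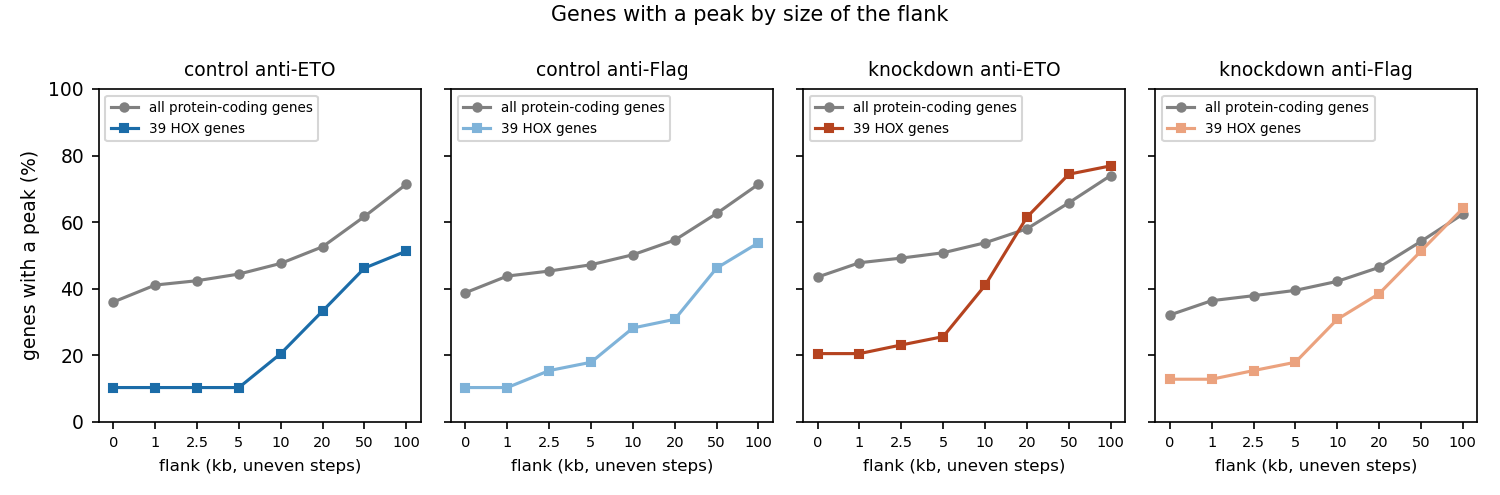
Percent of genes with a peak, in each single-antibody list, as the flank around the gene body grows from 0 to 100 kb (uneven steps on the x axis), for the 39 HOX genes (squares) and all protein-coding genes (circles). HOX genes lie below all genes up to 10 kb in every list, and above them from 20 kb in the knockdown anti-ETO list and at 100 kb in the knockdown anti-Flag list.

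The size of the window set how many genes a peak reached. Within gene bodies alone, 4 HOX genes (10.3%) had a control anti-ETO peak and 8 (20.5%) a knockdown one, against 36.0% and 43.5% of all protein-coding genes. Within 50 kb the numbers were 18 (46.2%) and 29 (74.4%), against 61.7% and 65.8%. Up to 10 kb the HOX share stayed below that of all genes in each list, and from 20 kb the knockdown anti-ETO share was above it. At 100 kb the knockdown anti-Flag share was above it too, at 64.1% against 62.4%.

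Calls in the 10 kb windows were fewer among anterior genes, and peaks within gene bodies were about as frequent along the clusters. Of the 8 anterior genes (paralogues 1 to 3), 2 had a peak in any list, HOXA3 and HOXB3, whose long gene models reach into the central part. Of the 15 central genes (paralogues 4 to 8), 9 had one, and of the 16 posterior genes (paralogues 9 to 13), 9 had one. Within gene bodies, 2 anterior, 3 central and 4 posterior genes had a peak. Control anti-ETO called 0 anterior, 1 central and 7 posterior genes, and knockdown anti-ETO called 1, 7 and 8. Of all protein-coding genes, 58.4% had a peak in any list, 47.6% in control anti-ETO and 53.8% in knockdown anti-ETO. The 8 HOX genes of the control anti-ETO list rest on 5 peaks, and the uncalled HOXC genes are 4 central and 5 posterior ones. Genes that share a site are not separate observations, and no trend along the clusters was tested. The central genes added in knockdown were those near the HOXA5 and HOXB6 sites.

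Genes that work with HOX proteins or act on the clusters were counted in the same way from fixed lists. Of 9 genes of the TALE homeodomain cofactors, which bind DNA together with HOX proteins, 6 had a peak in any list and 2 in all 4, against 58.4% and 37.3% of all protein-coding genes. PBX2 had 5 control and 4 knockdown anti-ETO peaks and 5 control and 7 knockdown anti-Flag peaks, of which 1 site (chromosome 6, 32190292 to 32190542) was knockdown-unique. PKNOX1 had 2 shared peaks. MEIS2 had a control-unique peak 558 bp wide at chromosome 15, 37101411 to 37101968. MEIS1, a partner of HOXA9 in leukaemia models, and PKNOX2 had none.

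Of 20 genes for regulators of HOX expression, 18 had a peak in any list and 13 in all 4, against the same shares of all genes. DOT1L, the histone H3 lysine methylase needed for HOXA expression in KMT2A-rearranged leukaemia, had 7 control and 11 knockdown anti-ETO peaks and 11 control and 12 knockdown anti-Flag peaks. The whole lists grew 1.58 times for anti-ETO and 1.12 times for anti-Flag. DOT1L had 4 shared, 4 knockdown-unique and 1 control-unique site. CBX2 and CBX8, neighbouring Polycomb genes, shared 1 control-unique site, CBX2 had 1 more, and CBX8 had 2 knockdown-unique ones. SUZ12, a Polycomb subunit, had 1 site of each kind. KDM6B, an eraser of the Polycomb mark, had 5 shared sites and 1 control-unique one. ASXL1 and MLLT1 had 1 knockdown-unique site each, and MLLT3 and CDX2 had 1 control-unique site each. KMT2A, the Trithorax methylase of the clusters, and NPM1 were called by knockdown anti-ETO alone. CDX1 and CDX4 had no peak. Many of these genes are longer than HOX genes, and length was not matched. Of the 5 EVX and ParaHox genes, relatives of the HOX genes, EVX2 alone had a peak, the HOXD13 site seen from the neighbouring gene.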

How the data were processed

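CUT&RUN libraries of Kasumi-1 cells were mapped and peaks listed by the authors. Per the submitters' processing notes, the tools were fastp 0.19.5, Bowtie2 2.3.5, MACS2 2.2.5 and HOMER 4.8 and the builds hg38 and sacCer3, with no role given. The threshold, the use of IgG and the handling of replicates are not given in the sources used here. A more permissive threshold lengthens a list. The 9 deposited files hold chromosome, start and end in bp, without a header or score. Per the labels' protocols, each condition started from 200000 sorted cells, libraries were cut to the 150 to 400 bp range, and paired 75-bp reads were planned at about 40 M per library.

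Starts were converted to count from 1. Genes came from RefSeq GRCh38.p14, the release that matches hg38. A peak was given to a gene by 1 bp of overlap with the body or 10 kb on either side. Exons, introns and strands of most genes are not in the gene table. The software was pandas 2.3.3, numpy 2.4.6 and matplotlib 3.10.9 under Python 3.11.15, and 6 of 6 checks of the interval code on simulated windows gave the planted answer.

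The genes named are the 3 HOX genes per cluster with the most merged regions, those with unique peaks, those whose calls differ between conditions and those without a peak, apart from items not reported here. HOXA9, HOXA10 and HOXA11 were added after their calls in all 4 lists were seen. Related genes are named where they have a unique peak, and a few others (MEIS1, PKNOX1, PKNOX2, KMT2A, NPM1, CDX1, CDX4 and EVX2) were chosen after their values were seen. The sequence of LOC100129455 was likewise chosen later. The members and lists were chosen with earlier results of these data known. No test was run, because the files name no replicate. Alternatives tried were other flanks, the wider 50% of each list, an overlap of 100 bp, lists cut by width to equal length and peak centres.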

Additional observations from a re-analysis of the deposited data

How the results depend on the processing

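Requiring 100 bp of overlap, or placing peaks by their centre, kept all 17 counts within 1.5 times. With gene bodies alone, and equally with a flank of 1 kb, the HOX genes with a peak numbered 4 and 4 in the control anti-ETO and anti-Flag lists and 8 and 5 in the knockdown lists. For anti-ETO, 4 were then called in both conditions and 4 in knockdown alone. For anti-Flag, 2 were called in both, 2 in control alone and 3 in knockdown alone, and 1 merged region was control-only. With 50 kb the genes numbered 18 and 18 in control and 29 and 20 in knockdown. For anti-ETO, 18 were called in both conditions, and for anti-Flag 10 in both, 8 in control alone and 10 in knockdown alone. Flanks of 2.5, 5, 20 and 100 kb were added after the data were seen. In the order control anti-ETO, control anti-Flag, knockdown anti-ETO and knockdown anti-Flag, they gave 4, 6, 9 and 6 genes at 2.5 kb, 4, 7, 10 and 7 at 5 kb, 13, 12, 24 and 15 at 20 kb, and 20, 21, 30 and 25 at 100 kb.

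The wider 50% of each list gave 5 and 7 genes in control and 10 and 3 in knockdown, with 5 genes in both conditions and 5 in knockdown alone for anti-ETO, and 3 in both and 0 in knockdown alone for anti-Flag. The merged regions numbered 6, of which 2 were in both conditions, 1 in control and 3 in knockdown. The derived lists then held 0 shared, 1 control-unique and 1 knockdown-unique peak. With all 4 lists cut to the shortest, knockdown anti-ETO called 10 genes and knockdown anti-Flag 3. For anti-ETO, 1 gene was called in control alone and 3 in knockdown alone, and for anti-Flag 3 in both and 0 in knockdown alone. There were 7 merged regions, 1 of them knockdown-only. This setting was not run for the derived lists.

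No paired analysis was possible because the files name no replicate, and leaving out replicates was not possible for the same reason. Width stands in for the missing score, so the wider 50% leaves out narrow sites such as HOXB6 and HOXA13. Cutting to the shortest leaves the control anti-ETO list, itself the shortest, whole and shortens the other lists.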

Other observations

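Non-coding genes of the clusters were counted by the same rule. Of 24 listed, 8 had a peak in any single-antibody list and 2 in all 4, against 58.4% and 37.3% of all protein-coding genes. The 24 are of another class and include short microRNA genes, and length was not matched. HOXA10-AS and MIR196B, which encodes a microRNA between HOXA9 and HOXA10, had a peak in all 4 lists, the HOXA10 site in each case. HOXA-AS3 and HOXB-AS3 carried the knockdown-unique sites at HOXA5 and HOXB6. HOTTIP and HOXD-AS2 had the control-unique sites at HOXA13 and HOXD8 in their windows. MIR10A, inside the HOXB cluster, had 1 knockdown anti-Flag peak and no other. MIR10B, inside the HOXD cluster, had 1 anti-ETO peak in each condition and no anti-Flag peak. HOTAIR, the non-coding RNA of the HOXC cluster, and HOTAIRM1, which is transcribed in myeloid cells, had none. These genes overlap or adjoin HOX genes, so their peaks are the sites already described and not further ones.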
